A study of Mus musculus with 12 samples.

Results

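The genes described here are the 185 protein-coding genes on mouse chromosomes 7, 8, 13 and 17 whose symbol is Zfp followed by a number, out of 21755 protein-coding genes on chromosomes 1 to 19 and X in the GENCODE M21 annotation (build mm10). The rule that picked them uses symbol and chromosome only and no measured value, but the choice was made with earlier results of these data known. Chromosome 7 carried 89 of them, chromosome 17 carried 41, chromosome 13 carried 31 and chromosome 8 carried 24. A gene was called clustered when the body of another member lay within 100 kb of its own, which placed 135 members in 25 clusters and left 50 lone members. Clusters held between 2 and 15 genes, 12 of them held at least 5, and 8 were pairs. Binding was read from YY1 ChIP-seq of lineage-negative (Lin-) bone marrow cells, the stem and progenitor cells left after mature blood cells are removed. The cells came from 3-month-old female mice of the strain 129Sv4/Jae x B6, with 2 libraries from wild-type (WT) animals and 2 from XistΔ/Δ animals, in which both floxed Xist alleles are deleted by Vav-iCre, a Cre transgene driven by Vav1 sequences. That transgene acts across the blood lineage, and whether the WT animals carried it is not given in the labels. The 8 histone mark samples of the series were not analysed here.

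Zfp genes encode proteins with zinc fingers, short folds held by a zinc ion, each of which can contact a few bases of DNA. Many mouse Zfp genes arose by repeated tandem duplication and still lie side by side, and many of their proteins carry a KRAB domain, which recruits the corepressor TRIM28 and the histone methyltransferase SETDB1 to silence transposable elements. YY1 is itself a zinc finger protein that binds promoters and enhancers at a short motif with the core ATGG. Xist is the RNA by which female cells silence an X chromosome.

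The promoters below are RefSeq sequences (GRCm38.p6, the same assembly as mm10), from 250 bases before to 30 bases after the transcript start, 5′ to 3′ on the gene's strand. The first 3 belong to the members with the widest YY1 peaks that hold the YY1 core motif AANATGGC on either strand (on the opposite strand it reads GCCATNTT), and the capitals mark that motif.
Zfp563 (chr17:33089117-33089396, plus strand): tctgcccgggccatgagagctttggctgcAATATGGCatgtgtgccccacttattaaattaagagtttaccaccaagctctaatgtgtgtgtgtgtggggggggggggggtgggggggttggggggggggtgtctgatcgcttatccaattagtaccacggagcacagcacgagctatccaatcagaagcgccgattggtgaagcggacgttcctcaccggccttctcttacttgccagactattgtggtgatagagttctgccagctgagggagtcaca
Zfp882 (chr8:71908356-71908635, plus strand): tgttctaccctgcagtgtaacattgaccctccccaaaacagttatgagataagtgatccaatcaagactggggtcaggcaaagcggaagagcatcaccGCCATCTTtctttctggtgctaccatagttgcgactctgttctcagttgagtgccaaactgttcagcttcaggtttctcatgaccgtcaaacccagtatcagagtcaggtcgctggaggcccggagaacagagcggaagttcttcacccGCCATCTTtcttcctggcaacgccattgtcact
Zfp617 (chr8:71922575-71922854, plus strand): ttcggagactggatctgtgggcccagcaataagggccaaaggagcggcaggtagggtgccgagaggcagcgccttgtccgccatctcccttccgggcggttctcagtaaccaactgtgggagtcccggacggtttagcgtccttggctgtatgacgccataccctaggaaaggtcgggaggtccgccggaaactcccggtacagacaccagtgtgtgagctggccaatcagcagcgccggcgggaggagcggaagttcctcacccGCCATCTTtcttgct
Peaks covered the whole printed stretch of Zfp882 and of Zfp617 in all 4 libraries. The Zfp563 stretch was covered in full in 3 libraries. In XistΔ/Δ replicate 1 the peak there ran from position 33089126 to 33090736, which includes the motif but not the first bases of the stretch, and the widest peak within 3 kb of its starts was another there. Zfp882 and Zfp617 are neighbours on chromosome 8, and each had a peak over its own start. The peak over the Zfp617 stretch was 2106 and 2263 bp wide in WT and 1469 and 1834 bp wide in XistΔ/Δ (replicates 1 and 2). The wider peak that ranks Zfp617 lies over the Zfp882 stretch, within 3 kb of another start of Zfp617. The other 2 promoters are those of the longest members without a peak near any start in any library, Zfp536 and Zfp423, genes known for roles in nerve cell and in fat and nerve cell development. Neither held the motif, so no letter is in capitals.
Zfp536 (chr7:37769723-37770002, minus strand): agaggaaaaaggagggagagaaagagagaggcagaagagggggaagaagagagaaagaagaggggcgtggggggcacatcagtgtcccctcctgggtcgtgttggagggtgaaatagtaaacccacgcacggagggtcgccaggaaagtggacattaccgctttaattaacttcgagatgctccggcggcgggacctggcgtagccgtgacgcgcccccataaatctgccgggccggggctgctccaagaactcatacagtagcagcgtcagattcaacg
Zfp423 (chr8:87959566-87959845, minus strand): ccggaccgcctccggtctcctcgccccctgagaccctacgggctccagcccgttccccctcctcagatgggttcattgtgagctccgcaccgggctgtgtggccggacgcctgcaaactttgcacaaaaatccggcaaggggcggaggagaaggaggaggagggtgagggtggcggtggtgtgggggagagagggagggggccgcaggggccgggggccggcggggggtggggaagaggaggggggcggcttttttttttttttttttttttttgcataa

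RefSeq promoters of 300 bases (250 before to 50 after the start) were found for 163 of the 185 members, and 28 of these (17.2%) held the core motif. Of the 16450 protein-coding genes with such a promoter, 1250 (7.60%) held it. In 22 of the 28 members the motif read on the strand opposite to the gene, and in 15 its first base lay within 30 bases of the start. Windows around the motif are shown for the cluster from Zfp871 to Zfp563 on chromosome 17, in which 5 of 7 matched promoters held it. These windows and the next set were picked after the values were seen.
Zfp871 (site at chr17:32788255-32788262, minus strand): cttcccgtccaGCCATTTTaggcgtttgtg
Zfp472 (site at chr17:32965811-32965818, plus strand): gctcccttgccGCCATATTtgagttccggg
Zfp763 (site at chr17:33033390-33033397, minus strand): ccgcccttgccGCCATGTTtgagtcctgtg
Zfp811 (site at chr17:32809957-32809964, minus strand): caggcattaggAAGATGGCcgctacgtatc
Zfp871, Zfp472 and Zfp763 had a YY1 peak near a start in all 4 libraries, and Zfp811 had none. The motif was also present without a peak in Zfp977, whose window was letter for letter that of the lone gene Zfp936, also without a peak at its starts. Within 500 bp of the starts, 78.9% of 50-base words at Zfp977 and 74.8% at Zfp936 occur only once in the genome.
Zfp977 (site at chr7:42592548-42592555, minus strand): tgcttccgggcGCCATGTTgctggttcaat
Zfp936 (site at chr7:43177585-43177592, plus strand): tgcttccgggcGCCATGTTgctggttcaat

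The libraries differed in depth by replicate number rather than by genotype. Replicate 1 held 24.9 M tags in WT and 23.1 M in XistΔ/Δ, and replicate 2 held 50.0 M and 59.5 M. Depth here means this number of tags, as listed with the peak calling, and not the number of reads sequenced. The peak lists held 9553 (WT replicate 1), 15933 (WT replicate 2), 10075 (XistΔ/Δ replicate 1) and 18113 (XistΔ/Δ replicate 2) peaks. The lists give each peak a position and a width but the same score, so width was the only graded value, and it is given as its percentile among all peaks of the library. The widest peak within 3 kb of a start was taken in each library by itself. Widths given for 1 gene can therefore come from different peaks in different libraries. A peak of the most frequent width, 501 bp, stood at percentile 9.76 (WT replicate 1), 9.25 (WT replicate 2), 12.02 (XistΔ/Δ replicate 1) and 9.82 (XistΔ/Δ replicate 2). Below, the WT pair and the XistΔ/Δ pair stand for replicate 1 and then replicate 2. The deletion was visible in the data: the Xist promoter carried a peak of 3083 and 3222 bp in WT and none in either XistΔ/Δ library. The study calls its replicates biological but does not state whether they are separate animals, so p-values measure only the spread between these libraries.

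YY1 peaks lay at the starts of most members in the deeper libraries and of just under 50% in the shallow ones. A TSS-proximal peak, with any base within 3 kb of any transcript start of the gene, was found at 90 of 185 members (48.6%) in WT replicate 1, 128 (69.2%) in WT replicate 2, 88 (47.6%) in XistΔ/Δ replicate 1 and 128 (69.2%) in XistΔ/Δ replicate 2. The deeper replicate 2 libraries were higher than the replicate 1 libraries in both genotypes, and within a replicate number the totals of the genotypes differed by at most 2. The members behind these totals were not all the same: 22 members in replicate 1 and 18 in replicate 2 had a peak in 1 genotype only. That count was not made over all protein-coding genes, so it is not read as particular to members. A peak in all libraries but XistΔ/Δ replicate 1 was found at 11 members (5.95%), against 3.22% of all protein-coding genes. In all but WT replicate 1 it was 7 members (3.78%), against 3.24%. In at least 2 of the 4 libraries 123 members (66.5%, 95% Wilson interval 59.4 to 72.9%) had such a peak, against 47.4% of all protein-coding genes. In all 4 libraries it was 78 members (42.2%) against 36.0%, and in none it was 48 members (25.9%) against 49.3% of all protein-coding genes. The 180 Zfp genes on other chromosomes had a peak in at least 2 libraries in 105 cases (58.3%). These intervals cover counting error over genes only, and genes of a cluster are not independent of each other.

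Part of the peaks at members were present only in the deeper libraries. Both replicate 2 libraries and neither replicate 1 library had a peak at 23 members (12.4%), against 4.37% of all protein-coding genes, and the reverse pattern occurred at 0 members. Of these 23, 20 were clustered (14.8% of clustered members) and 3 were lone (6% of lone members). Peaks sat close to the start: their centre lay within 500 bp of an own transcript start in 94.4% (WT replicate 1), 96.1% (WT replicate 2), 94.3% (XistΔ/Δ replicate 1) and 96.1% (XistΔ/Δ replicate 2) of members with a peak, and in 85.2 to 89.4% over all protein-coding genes with one.

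**Figure D1:**
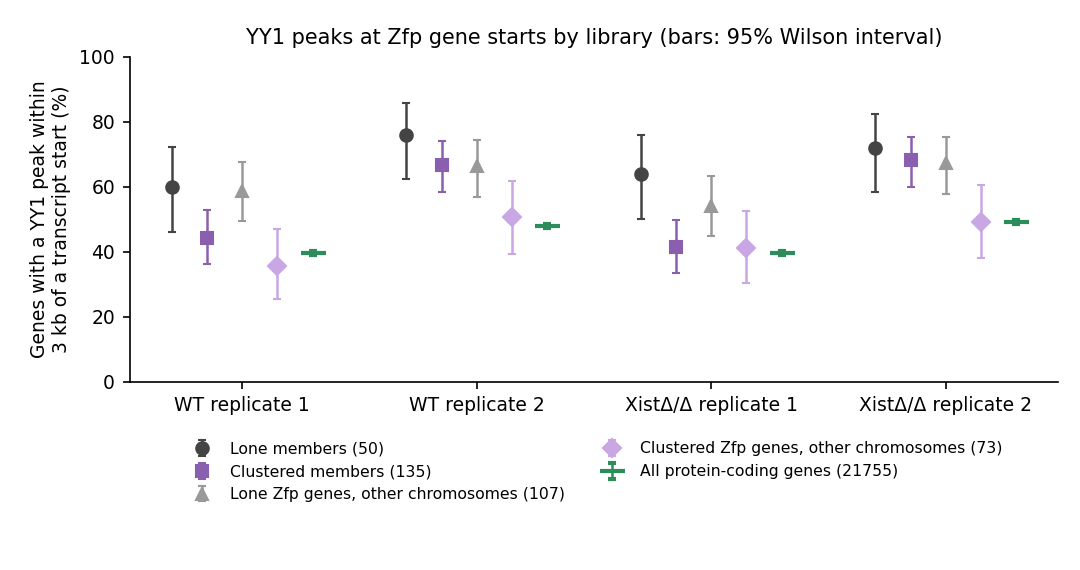
Percent of genes with a YY1 peak within 3 kb of a transcript start (vertical axis) in each of the 4 libraries (horizontal axis), for lone and clustered members, lone and clustered Zfp genes of other chromosomes, and all protein-coding genes. Bars are 95% Wilson intervals; clustered members lie below lone members in every library, with differences from -22.5 points in XistΔ/Δ replicate 1 to -3.85 points in XistΔ/Δ replicate 2.

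The share with a peak was lower in clustered than in lone members in each library, by more in the shallow libraries, but 4 libraries are too few for the difference to pass a test. In WT replicate 1, 60 of 135 clustered members (44.4%) and 30 of 50 lone members (60%) had a TSS-proximal peak, a difference of -15.6 percentage points (95% Newcombe interval -30.4 to 0.626). In WT replicate 2 the counts were 90 and 38, a difference of -9.33 points (-22.1 to 5.98). In XistΔ/Δ replicate 1 they were 56 and 32, a difference of -22.5 points (-36.8 to -6.29), the only library whose interval left out 0. In XistΔ/Δ replicate 2 they were 92 and 36, a difference of -3.85 points (-17.2 to 11.6). The mean of the 4 differences was -12.8 ± 8.04 points (SD, n = 4 libraries; two-sided exact permutation of signs, p = 0.125, the smallest that 4 libraries allow). The same division of the 180 Zfp genes on other chromosomes, 73 clustered and 107 lone, gave a mean difference of -17.5 ± 4.32 points (n = 4 libraries; exact permutation p = 0.125). There the differences were -23.3 and -15.7 points in the WT pair and -13.1 and -18.0 points in the XistΔ/Δ pair. They were thus not larger in the shallow library of both genotypes, unlike those of members.

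Among members, the difference depended on how firm a peak call was asked for. With a peak in all 4 libraries, 50 clustered members (37.0%) stood against 28 lone members (56%), a difference of -19.0 points (interval -33.9 to -2.90), while the shares without any peak were 26.7 and 24%, a difference of 2.67 points (interval -12.3 to 15.3). Zfp genes of other chromosomes did not repeat this. Their differences were -18.5 points with a peak in all 4 libraries and 16.7 points (interval 2.31 to 30.5) without any peak. A start of another protein-coding gene lay within 3 kb of a start of 23 clustered and 8 lone members, and without these the mean difference was -10.5 ± 10.1 points (n = 4 libraries; exact permutation p = 0.25), with XistΔ/Δ replicate 2 at +2.08. No width difference passed a test. Among members with a peak, the median width percentile of clustered and lone members was 53.5 and 59.8 in WT replicate 1, 60.7 and 69.2 in WT replicate 2, 62.5 and 52.9 in XistΔ/Δ replicate 1 and 61.3 and 71.1 in XistΔ/Δ replicate 2. The mean difference was -3.72 ± 9.02 percentile points (n = 4 libraries; exact permutation p = 0.5), with clustered members higher in XistΔ/Δ replicate 1 and lower in the other 3. Over the members with a peak in all 4 libraries the mean difference was -0.0217 ± 5.14 points (n = 4 libraries; exact permutation p = 1).

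Single clusters ranged from fully occupied to empty. In 8 of the 25 clusters every member had a peak in at least 2 libraries, and in 4 clusters no member did. Pairs were among both kinds, and over all clustered members the share with such a peak was 63.7%. In the pair of Zfp668 and Zfp646 both genes were counted on a shared peak. The cluster at chr7:127233061-127449158, from Zfp553 to Zfp689, had peaks at 7 of 7 members in all 4 libraries. The cluster at chr17:32765496-33110705, from Zfp871 to Zfp563, had peaks in all 4 libraries at 6 of 8 members. The 4 clusters without a member in 2 libraries were the pair Zfp935 and Zfp934 and the 5 genes from Zfp738 to Zfp273 on chromosome 13, and the pair Zfp960 and Zfp97 and the 3 genes from Zfp944 to Zfp946 on chromosome 17. The median share of 50-base words within 500 bp of the starts that occur once in the genome was 34.7% in the first, 94.9% in the second, 31.6% in the third and 65.0% in the fourth of these. In the second and in the fourth, 2 members each had a peak in WT replicate 2. Those of the fourth, Zfp944 and Zfp758, were counted on a shared peak. By chromosome, the share of members with a peak in all 4 libraries ran from 4 of 31 on chromosome 13 to 15 of 24 on chromosome 8, with 41 of 89 on chromosome 7 and 18 of 41 on chromosome 17. The clustered members numbered 23 on chromosome 13, 9 on chromosome 8, 71 on chromosome 7 and 32 on chromosome 17, so chromosome and clustering were not separated. Of the other protein-coding genes on these 4 chromosomes together, 34.8% had a peak in all 4 libraries.

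**Figure D2:**
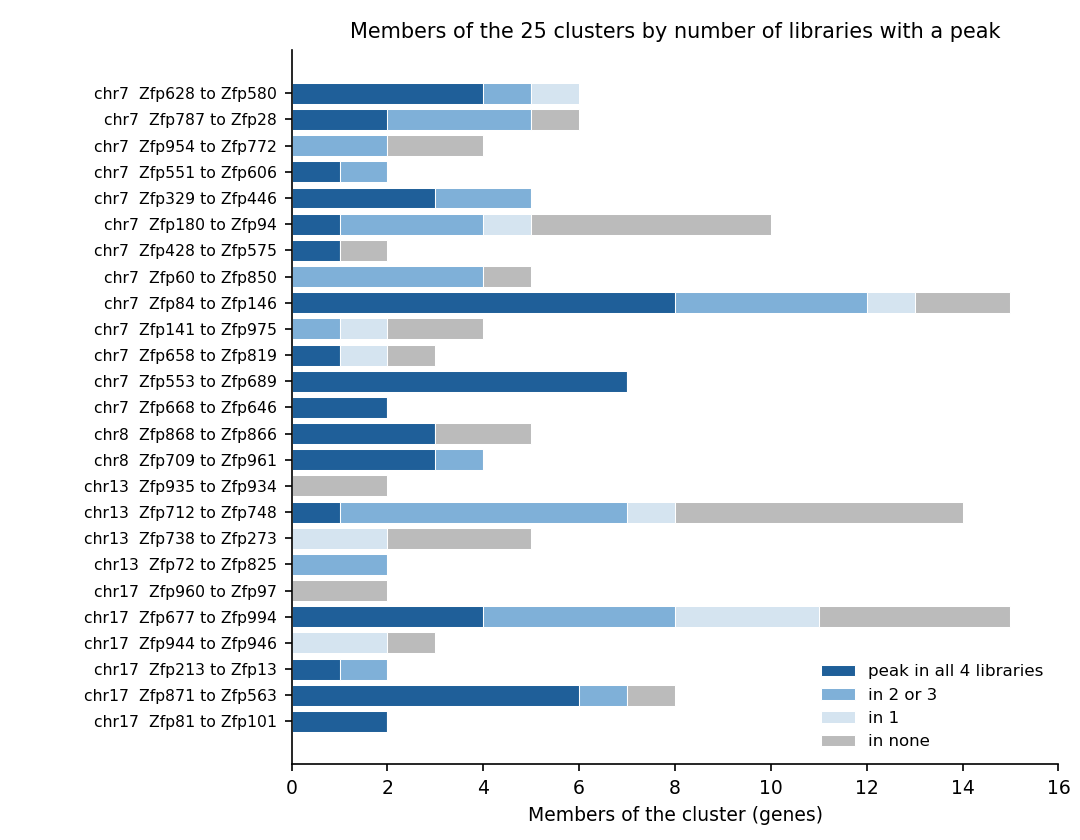
Members of each of the 25 clusters (bars, in genes) by the number of libraries with a TSS-proximal peak, in order along chromosomes 7, 8, 13 and 17. The cluster from Zfp553 to Zfp689 has peaks in all 4 libraries at all 7 members, while 4 clusters show only the sections for a peak in 1 or in no library.

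Occupied and empty genes also lay side by side within the 3 largest clusters. The cluster at chr7:29768552-30169750 (15 members from Zfp84 to Zfp146) had a peak in at least 2 libraries at 12 members and in all 4 at 8. Zfp146 had the highest mean percentile there, with 83.8 and 79.7 in the WT pair, 92.9 and 85.5 in the XistΔ/Δ pair (replicates 1 and 2), followed by Zfp260 with 71.7 and 70.2 in the WT pair, 79.0 and 64.8 in the XistΔ/Δ pair. Zfp30 and Zfp420 lay in the same cluster with no peak in any library. The cluster at chr17:21383748-22225616 (15 members from Zfp677 to Zfp994) had a peak in at least 2 libraries at 8 members and in all 4 at 4. All 8 lay in the first 9 genes of that cluster: Zfp52 led with percentiles of 83.5 and 97.4 in the WT pair, 86.3 and 96.95 in the XistΔ/Δ pair, and Zfp760 followed with 34.0 and 62.5 in the WT pair, 40.9 and 63.3 in the XistΔ/Δ pair. The ranked peak of Zfp52 was centred at -452 and 95 bp from the nearest own start in the WT pair, -3005 and 199 bp in the XistΔ/Δ pair. The 4 values may thus not be of the same peak. At the other end of this cluster Zfp947 and Zfp994 had no peak. The cluster at chr13:67038596-67553830 (14 members from Zfp712 to Zfp748) had a peak in at least 2 libraries at 7 members and in all 4 at 1, Zfp748, whose percentiles were 36.0 and 32.1 in the WT pair, 62.3 and 60.2 in the XistΔ/Δ pair. Zfp595, second there, had no peak in WT replicate 1 and percentiles of 50.4 in WT replicate 2 and 32.8 and 48.2 in XistΔ/Δ. Zfp84 and Zfp30 are next to each other at the end of the first of these clusters, and Zfp84 had a peak in every library (mean percentile 67.7) and Zfp30 in none.

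**Figure D3:**
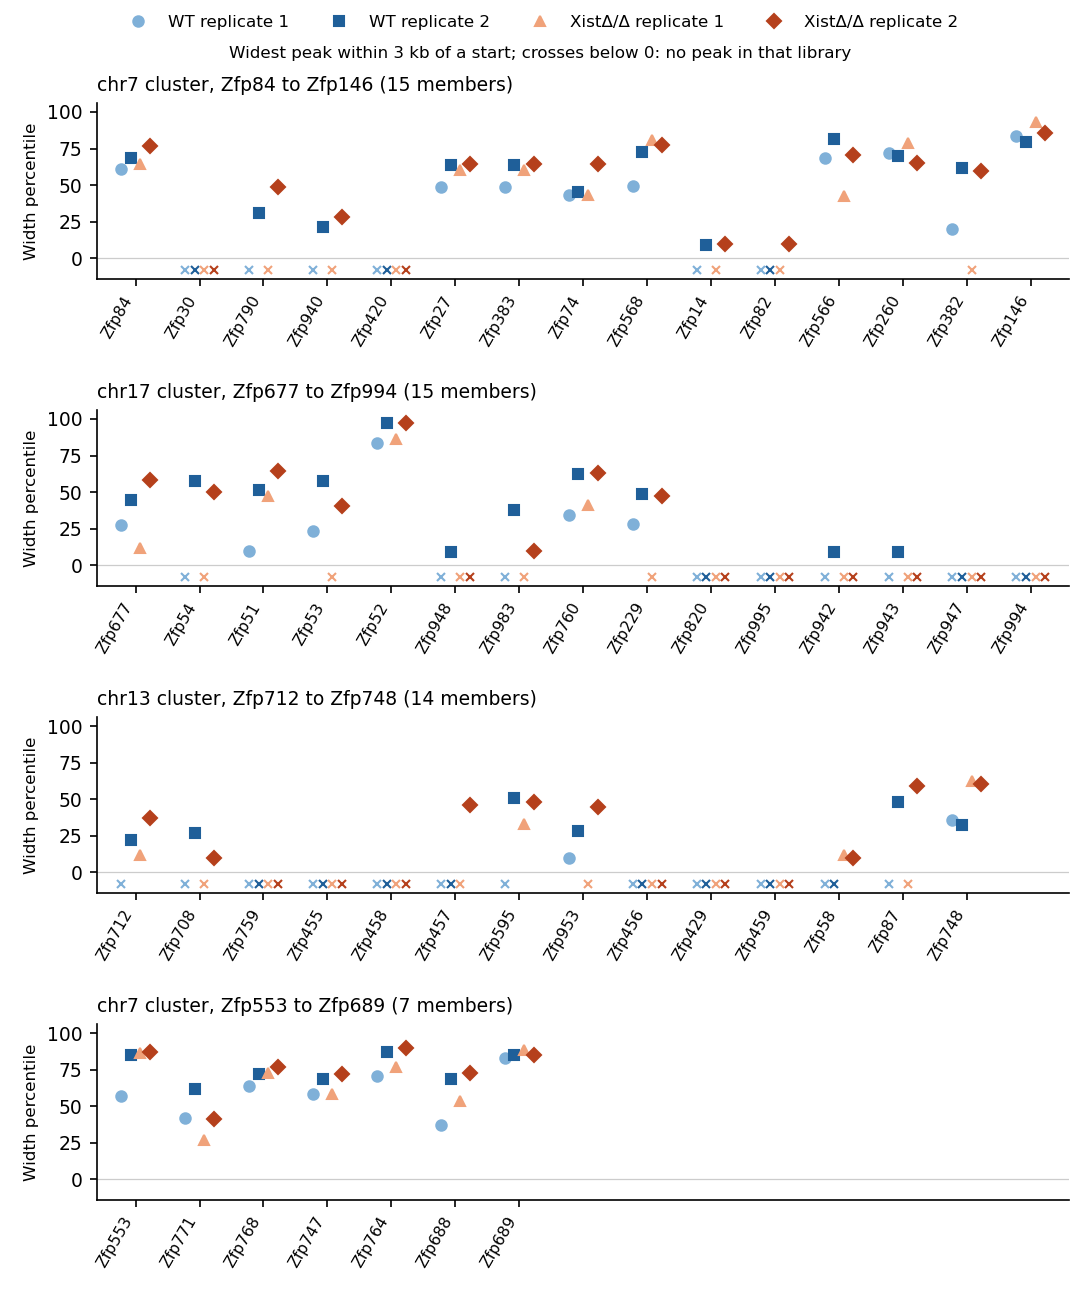
Width percentile of the widest peak within 3 kb of a start (vertical axis, 0 to 100) for each gene of the 3 largest clusters and of the chromosome 7 cluster from Zfp553 to Zfp689, in order along the chromosome, with 1 symbol per library and a cross below 0 where the library had no peak. Zfp52 reaches 97.4 in WT replicate 2, while the last 6 genes of its cluster hold no peak in at least 3 libraries each.

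The widest peaks belonged to both clustered and lone members. Zfp563, a clustered gene on chromosome 17, had peaks of 2536 and 5103 bp in the WT pair, 2312 and 5702 bp in the XistΔ/Δ pair, at percentiles 97.3, 99.8, 98.2 and 99.9. The lone gene Zfp143, whose protein binds promoters and chromatin loop ends, had 2629 and 3718 bp in the WT pair, 2472 and 3600 bp in the XistΔ/Δ pair, at percentiles 97.8, 98.96, 98.6 and 99.04. The lone gene Zfp36 encodes tristetraprolin, an RNA-binding protein that speeds mRNA decay. Its widest peak was 2312 and 3262 bp in the WT pair, 1617 and 8621 bp in the XistΔ/Δ pair. The 2 XistΔ/Δ libraries thus lay on either side of both WT libraries, but the widths may not be of the same peak. The centre lay at -1282 and -1819 bp from the nearest own start in the WT pair, -2433 and -146 bp in the XistΔ/Δ pair. Zfp524 had 2176 and 3035 bp in the WT pair, 1911 and 2695 bp in the XistΔ/Δ pair, with starts of Fiz1 and Gm44973 in the same window. Zfp882 and Zfp617 shared a peak of 2358 and 3435 bp in the WT pair, 1489 and 2549 bp in the XistΔ/Δ pair. Zfp668 and Zfp646 shared a peak of 2186 and 2181 bp in the WT pair, 2007 and 2004 bp in the XistΔ/Δ pair. Zfp52 and Zfp574 completed the 10 highest mean percentiles, at 91.1 and 90.2. For Zfp574 the peak lay near an alternative start, also within 3 kb of a start of Grik5, and with the gene's 5′ end alone it had no peak in any library. Peaks shared by 2 members were counted for each, and Zfp27 and Zfp383 were the third pair that shared one in every library.

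Members with well studied proteins were spread over the range. Zfp568, which silences a placental transcript of Igf2, had peaks of 890 and 1391 bp in the WT pair, 1221 and 1428 bp in the XistΔ/Δ pair. Zfp110 and Zfp369, a related pair that binds the neurotrophin receptor p75, had mean percentiles of 78.6 and 75.3 with a peak in all 4 libraries. Zfp346, whose protein binds double-stranded RNA, had 635 and 1287 bp in the WT pair, 751 and 1075 bp in the XistΔ/Δ pair. Zfp367 had 1574 and 1443 bp in the WT pair, 1159 and 1770 bp in the XistΔ/Δ pair. Zfp710 had 1015 and 3383 bp in the WT pair, 501 and 3514 bp in the XistΔ/Δ pair, so both replicate 2 libraries lay above both replicate 1 libraries. Zfp131, a member of the BTB zinc finger family, lacked a peak in XistΔ/Δ replicate 1, and Zfp330 lacked one in WT replicate 1. Zfp42 (Rex1), a pluripotency gene that arose as a copy of the YY1 family, Zfp57, which keeps methylation at imprinted regions, and Zfp423 had no peak in any library.

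Peaks were then set beside features of the encoded proteins and the promoters. Counted in the longest coding sequence of each gene, members held a median of 11 zinc fingers of the C2H2 form (quartiles 9 to 15, highest 33 in Zfp619). In 4 members the pattern was absent, among them Zfp36, whose fingers are of another form. A KRAB-like pattern was found in 115 of 185 members, in 96 of 135 clustered (71.1%) and 19 of 50 lone members (38%). Among members with it, 46 (40%) had a TSS-proximal peak in WT replicate 1, 71 (61.7%) in WT replicate 2, 44 (38.3%) in XistΔ/Δ replicate 1 and 72 (62.6%) in XistΔ/Δ replicate 2. Among the 70 without it the shares were 62.9, 81.4, 62.9 and 80%, higher by 17.4 to 24.6 points in each library. In at least 2 libraries a peak was found at 59.1% of members with the pattern and 78.6% of those without. An earlier form of the pattern, which asked for W at its end but allowed other residues elsewhere, was found in 111 members and gave 62.2 and 72.97%, a smaller gap. The form used was chosen after this look, and the comparison is given without a test.

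The KRAB-like pattern moved with clustering, and so did the uniqueness of the sequence. Within members that hold the pattern, the share with a peak in at least 2 libraries was 58.3% for clustered and 63.2% for lone members, and within members that lack it 76.9 and 80.6%. In splits added after the values were seen, the mean clustered minus lone difference over the 4 libraries was -3.95 points with the pattern (n = 4 libraries, exact permutation p = 0.625) and -8.66 points without it (exact permutation p = 0.125). The authors kept only reads of high mapping quality. The share of 50-base words within 500 bp of a start that occur once in the genome was also measured. Its median was 98.5% in clustered members, 100% in lone members and 100% over all protein-coding genes. It was 91.2% in the 48 members without a peak, against 100% in all protein-coding genes without one. The share was under 50% in 3 members, Zfp934, Zfp935 and Zfp97, none of which had a peak. Over all 21755 protein-coding genes it was under 50% in 1031, of which 994 had no peak, so this is not particular to members. Among members above 90%, a split also added after the values were seen, with 93 clustered and 46 lone genes, the mean clustered minus lone difference was -5.07 points (n = 4 libraries; exact permutation p = 0.375). Whether sequence uniqueness has a part in the difference was not tested.

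**Figure D4:**
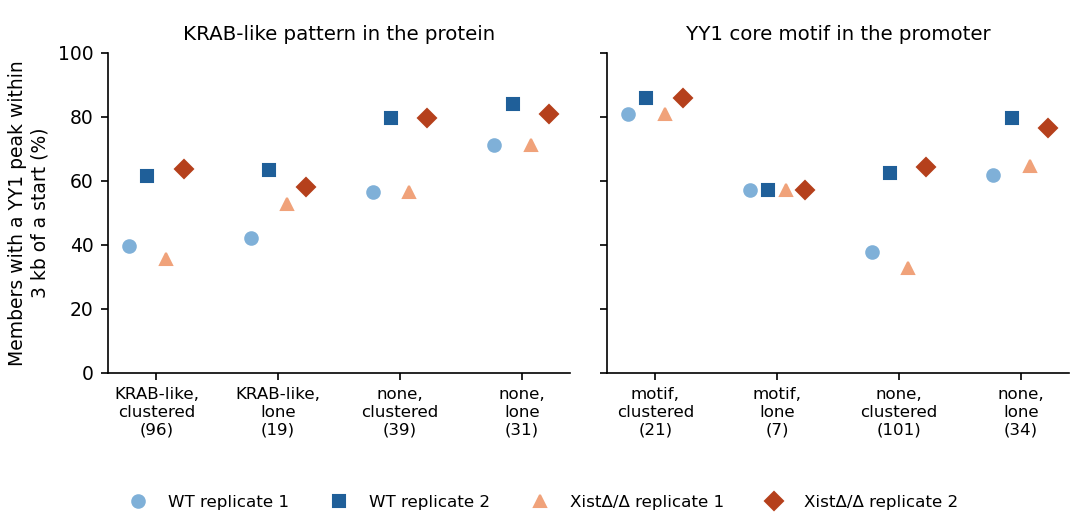
Percent of members with a YY1 peak within 3 kb of a start (vertical axis) in each library (symbols), for clustered and lone members with and without a KRAB-like pattern in the protein (left) and with and without the YY1 core motif in the RefSeq promoter (right); group sizes are in brackets. Clustered members with the motif reach 81.0 to 85.7% in every library, and clustered members without it 32.7 to 64.4%, while lone members with it stand at 57.1% and lone members without it at 61.8 to 79.4%.

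Over clustered and lone members together, those with the core motif had a peak in the shallow libraries more frequently than those without it, a description with no test. Of the 28, 21 had a TSS-proximal peak in WT replicate 1, 22 in WT replicate 2, 21 in XistΔ/Δ replicate 1 and 22 in XistΔ/Δ replicate 2, so 21 (75%) had it in all 4. Of the 135 members whose promoter lacked the motif, 47 (34.8%) had a peak in all 4 libraries, while 59 and 90 had a peak in the WT libraries, 55 and 91 in the XistΔ/Δ libraries. Over all protein-coding genes the shares in all 4 libraries were 72.5% with the motif and 35.0% without it. Clustered members with the motif had a peak in all 4 libraries in 17 of 21 cases, against 27.7% of clustered members without it. Lone members had one in 4 of 7 cases with the motif and 19 of 34 without it, and in each library the share was 57.1% with the motif and between 61.8 and 79.4% without it, so the per-library shares were higher with the motif in clustered members and lower with it in lone ones. Whether clustered and lone members differ in this was not tested. Among members with a peak in 1 to 3 libraries, 1 of 52 matched promoters (1.92%) held the motif, near the 2.31% of all protein-coding genes with such a pattern. Among members without a peak it was 6 of 43 (13.95%), against 3.70% of all protein-coding genes without one. Promoters of members with a peak in all 4 libraries had a median observed to expected CpG ratio of 0.702, against 0.446 in members without a peak. The corresponding medians over all protein-coding genes were 0.843 and 0.278. A match to these letters is a description and not evidence of a bound site.

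Peaks inside the gene bodies were few. A gene-body peak, overlapping the gene and more than 3 kb from all its starts, was found at 3 members in WT replicate 1, 7 in WT replicate 2, 2 in XistΔ/Δ replicate 1 and 7 in XistΔ/Δ replicate 2. In at least 2 libraries there were 5 such members (2.70%), against 6.87% of all protein-coding genes. Counted per Mb of gene body beyond 3 kb of the starts, this was 1.61 genes per Mb for members and 1.69 for all protein-coding genes. Zfp771, a clustered gene on chromosome 7, had a peak over a coding exon in all 4 libraries, of 792 and 1292 bp in the WT pair, 963 and 1327 bp in the XistΔ/Δ pair. In WT replicate 1 it lay at chr7:127253862-127254653, 8675 bp from the nearest own start. Zfp710 had an intronic peak in all 4 libraries near the start of Gm21057, of 501 and 765 bp in the WT pair, 753 and 896 bp in the XistΔ/Δ pair. Zfp13 had an intronic peak in 3 libraries, and Zfp523 and Zfp961 had a gene-body peak in the replicate 2 libraries only. Zfp180, Zfp592, Zfp935 and Zfp936 had one in a single library. The clustered minus lone difference was below 0 in each library, with a mean of -1.96 ± 1.28 points (n = 4 libraries; exact permutation p = 0.125) that rested on 1 to 4 genes per group. It was -0.535 points among members with the KRAB-like pattern described above (exact permutation p = 1) and -0.517 among those without it (exact permutation p = 0.875). Per Mb of gene body beyond 3 kb of the starts the order was the other way, at 1.77 genes for clustered and 1.41 for lone members. In Zfp genes of other chromosomes the mean difference was 2.18 ± 0.603 points (n = 4 libraries; exact permutation p = 0.125).

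No genotype difference in the share of members with a peak was detected, in a design whose smallest p is 0.333. The mean share with a TSS-proximal peak was 58.9 ± 14.5% in WT and 58.4 ± 15.3% in XistΔ/Δ (SD, n = 2 libraries each; two-sided exact permutation p = 1). For clustered members it was 55.6 ± 15.7% and 54.8 ± 18.9%, and for lone members 68 ± 11.3% and 68 ± 5.66%. Gene-body peaks stood at 2.70 ± 1.53% of members in WT and 2.43 ± 1.91% in XistΔ/Δ (n = 2 each; exact permutation p = 1). A peak seen in XistΔ/Δ replicates 1 and 2 but in no WT library was found at 2 members, Zfp58 and Zfp78 (1.08%), against 0.202% of all protein-coding genes. Zfp58 had 501 bp in each, and Zfp78 had 501 and 929 bp, so 3 of the 4 peaks were of the most frequent width, and with only wider peaks Zfp58 had none. The opposite pattern occurred at 0 members, against 0.0689% of all protein-coding genes.

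No genotype difference in width was detected either. Over the 78 members with a peak in all 4 libraries, the median percentile was 60.6 and 72.0 for the WT pair, 62.8 and 74.1 for the XistΔ/Δ pair. The XistΔ/Δ minus WT difference of the means was 2.14 points (n = 2 libraries each; exact permutation p = 0.667), against 1.79 points over all protein-coding genes with a peak in all 4 libraries. A member was higher in XistΔ/Δ in both replicate numbers in 28 cases (35.9%), against 35.8% of all protein-coding genes, and lower in both in 16 cases (20.5%), against 17.2%, so both shares lie near those of all genes. Of the 28, 22 were clustered (44% of 50) and 6 were lone (21.4% of 28). Of the 16, 9 were clustered (18%) and 7 were lone (25%). Zfp27 and Zfp383, among the 22, were counted on a shared peak, and so were Zfp882 and Zfp617, among the 9. Whether clustered and lone members differ in this was not tested.

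**Figure D5:**
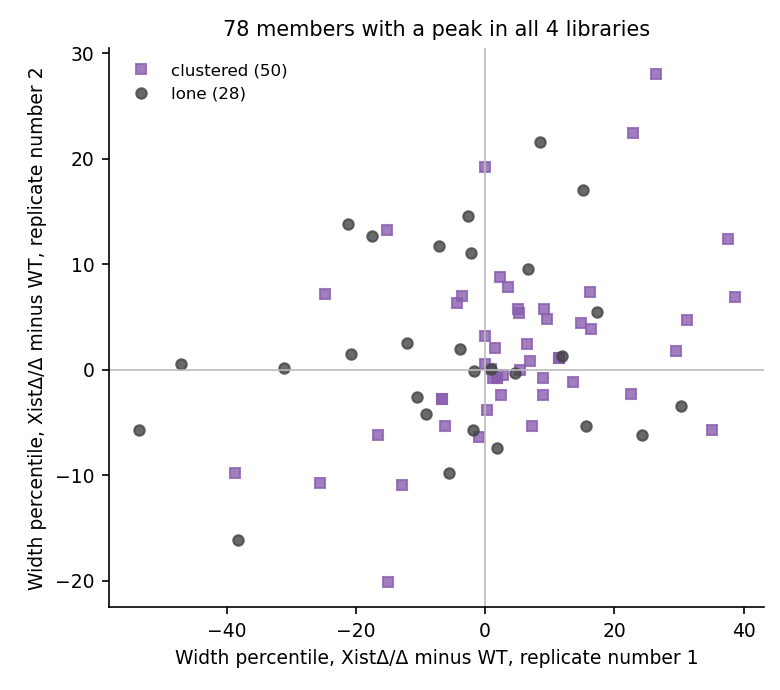
Width percentile in XistΔ/Δ minus WT for replicate number 1 (horizontal axis) against replicate number 2 (vertical axis), 1 point for each of the 78 members with a peak in all 4 libraries. Points fall on both sides of 0 on each axis, with 28 members above 0 on both axes and 16 below 0 on both.

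Genes for the partners of KRAB zinc finger proteins, a list that holds no member, also had YY1 peaks at their starts, though not every gene in every library. A TSS-proximal peak was found in at least 2 libraries at 16 of 16, against 47.4% of all protein-coding genes, and in all 4 at 14 of 16, against 36.0%. No comparison with genes of like expression or promoter CpG ratio was made, so these shares are not read as particular to the partners. Trim28, the corepressor that KRAB domains bind, had 1315 and 2443 bp in the WT pair, 1141 and 2371 bp in the XistΔ/Δ pair. Setdb1, which methylates histone H3 lysine 9, had a peak of 501 bp in the replicate 2 libraries only. Uhrf1, a partner of DNA methylation, lacked a peak in WT replicate 1 only. The heterochromatin protein gene Cbx3 had the widest peak of the list in each library, at percentiles of 99.6 in WT replicate 1 and 99.7 in XistΔ/Δ replicate 2, and Cbx5 stood at 96.5 and 97.3 in the same libraries. Atf7ip, Hdac1, Hdac2, Chd4, Cbx1, Dnmt1, Dnmt3a and the silencing complex genes Morc2a, Mphosph8, Pphln1 and Fam208a had a peak in all 4 libraries. In WT replicate 1 the widths of these 11 genes ran from 717 bp at Cbx1 to 2098 bp at Atf7ip.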

How the data were processed

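The peak lists were made by the authors. Per the submitters' processing notes and the study's methods, reads were trimmed with Trim Galore and aligned to mm10 with Bowtie2 (2.3.5.1), reads of low mapping quality and duplicates were removed, and peaks were called in each library with HOMER. The methods give no HOMER version for this step, and the processing notes list 4.9.1. Per the file headers, the false discovery rate was 0.001, peaks of 500 bp were joined into regions, the density had to exceed the surrounding 10000 bp 4 fold, no input library was named, and tag directories carried a replicate numbering other than that of the labels, which was used here. The deposited score column is 1 for every peak and ranks nothing.

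From the lists, peaks within 3 kb of a start and in gene bodies were counted per gene, and widths were ranked within each library (Python 3.11.15, numpy 2.4.6, pandas 2.3.3). Genotypes were compared by exact permutation over libraries, and clustered and lone members by exact sign permutation of the 4 within-library differences. Word uniqueness was computed on the GRCm38 chromosomes. Finger and KRAB-like patterns were counted in GENCODE coding sequences in place of RefSeq proteins. The KRAB-like pattern is D or E, V, any 3 residues, F, S or T, any 2 residues, E, then W or L, and the earlier form is D or E, then V, I or L, any 3 residues, F, then S, T, A or V, any 2 or 3 residues, E and W. Counting and test functions were tested on simulated data.

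Genes were named by rules: the 10 highest mean percentiles, gene-body peaks in 2 libraries, peaks in 1 genotype only, the highest and lowest mean percentiles of the 3 largest clusters, fixed members and partners, and for promoters the 3 highest members with the motif and the 2 longest without a peak. Motif windows, Zfp84 and members named for a count were chosen after their values were seen. Members and lists were chosen with earlier results of these data known. Alternatives were other windows, starts, peak lists, cluster distances and left-out libraries.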

Additional observations from a re-analysis of the deposited data

How the results depend on the processing

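Over all recomputations of the 6 comparisons under other settings, 89 kept the direction, 13 turned it and 2 gave 0, and exact p-values ran from 0.125 to 1. The clustered minus lone difference in TSS-proximal peaks stayed below 0 in all 20, from -17.9 to -3.95 points (-15.8 to -9.58 without each library in turn), and that in gene-body peaks in all 20 (-2.44 to -1.60 without each library). The width difference of clustered and lone members came close to 0 (-0.0217) over members with a peak in all 4 libraries, turned to 6.95 percentile points among members with the KRAB-like pattern and ran from -8.18 to -1.71 without each library. The genotype difference in the share with a TSS-proximal peak turned to 1.08 points with lists of equal length, 0.974 without members sharing a start window and 0.719 with unique starts only, and ran from -11.4 to 10.3 without each library, where the libraries left differ in depth. That in gene-body peaks was 0 with the gene 5 prime end only and with equal lists, 0.541 with wider peaks, 0.325 without members sharing a start window, and -1.62 to 1.08 without each library. That in width was -1.39 with equal lists and -5.10 to 7.87 without each library. With the replicate block the genotype differences were the same by construction, -0.541, -0.270 and 2.14 (exact permutation p = 1, 1 and 0.5, smallest possible 0.5). The numbers are not stated to mark a shared animal or day, and the block changed no call. Of 161 recomputations for 23 named members, 154 left the number of libraries with a peak unchanged, and the other 7 were of Zfp574, Zfp710, Zfp78 and Zfp58. The cause of these turns was not tested. The unique-start and pattern splits were chosen after seeing the data. Peak presence moved with replicate number, and so did depth: a peak needed 22 tags in the replicate 1 libraries and 33 and 37 in replicate 2. The share of tags in peaks differed too, at 3.58% (WT) and 3.59% (XistΔ/Δ) in replicate 1 and 4.87% and 4.88% in replicate 2. Which of these goes with peak presence was not tested.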
